A study of Homo sapiens with 11 samples.

Results

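The vacuolar-type ATPase (V-ATPase) and the core machinery of autophagy were followed in A375 melanoma cells as a set of 53 genes among the 58721 genes of the count table. The set holds the protein-coding genes whose GENCODE symbol starts with ATP6V0 or ATP6V1, or with ATG followed by a digit, plus MAP1LC3A, MAP1LC3B, GABARAP, GABARAPL1, GABARAPL2, SQSTM1, ULK1, ULK2, BECN1, WIPI1 and WIPI2. It divides into 24 V-ATPase genes and 29 autophagy genes. The choice was made by symbol without an expression cut, but with earlier results of these data known. A pair of the 24 names are not subunits in their own right: ATP6V1FNB is named for its neighbour ATP6V1F, and ATP6V1G2-DDX39B is a readthrough transcript. A filter on low counts left 51 genes for testing, and ATP6V1B1 and ATP6V1G2-DDX39B did not pass it. ATG9B, ATP6V0C, ATP6V0D2 and ATP6V1G3 passed only through persister libraries, so these 4 genes could be tested only because persister counts were higher.

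A375 is an established human melanoma line with an activating BRAF mutation, and trametinib inhibits the MEK kinases downstream of BRAF. Poly(A) RNA was sequenced from 5 withdrawn libraries (cells that had been persisters and then spent 4 weeks without drug), 5 persister libraries (cells kept for 8 weeks in 2 nM trametinib) and 1 parental library of untreated A375 cells. The labels tie each withdrawn library to a persister culture by its number. All libraries come from 1 cell line, and the labels leave unstated whether each of the 5 persister cultures was selected on its own. The p-values therefore measure the spread between these libraries, which may be technical. The parental group has no spread of its own, and tests against it borrow the spread of the other 10 libraries.

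The V-ATPase is a rotary proton pump that acidifies lysosomes, endosomes and Golgi vesicles. Its cytosolic V1 sector hydrolyses ATP, and the V0 sector in the membrane carries the protons. Autophagy wraps cytoplasm in a double membrane, coats that membrane with lipid-linked ubiquitin-like proteins, and delivers the cargo to lysosomes, whose enzymes need the acid the V-ATPase makes. The transcription factors TFEB, TFE3 and MITF are known to bind a short promoter motif shared by many lysosomal and autophagy genes, and mTORC1 at the lysosome keeps TFEB and TFE3 in the cytosol.

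The libraries held between 56513920 and 82984566 counts, and 23693 genes passed the filter. The label was checked against cell type markers: SOX10, a melanocyte lineage factor, was at 792 to 838 CPM in withdrawn, 29.2 to 86.6 CPM in persister and 635 CPM in parental cells. Of the 10 melanocyte lineage markers, 9 were tested, of which 4 were higher and 3 lower in persister cells relative to the parental library. Their sum was 1082 to 1192 CPM in withdrawn, 408 to 1021 CPM in persister and 818 CPM in parental cells, and the pigment enzyme TYR was near 0 in all libraries (at most 0.0851 CPM). Of 12 genes induced by MAPK signalling, 9 fell in persister cells relative to the parental library and 10 were higher in withdrawn than in persister cells, as a check of the drug labels. The summed level of 6 fibroblast markers was 8.33 to 11.7 CPM in withdrawn, 41.3 to 324 CPM in persister and 7.80 CPM in parental cells. The 6 leukocyte markers summed to at most 0.705 CPM, and 4 epithelial markers to at most 5.54 CPM. The 4 endothelial markers summed to 16.3 to 26.4 CPM in withdrawn, 2.18 to 15.3 CPM in persister and 17.9 CPM in parental cells. The part of these markers in the results below was not tested. The line is an established melanoma line, so the marker lists only check its label. In bulk RNA, fewer cells that express a marker and less of its RNA per cell cannot be told apart.

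In persister cells more of the V-ATPase and autophagy genes were higher than lower relative to the parental library. Values are given in CPM, counts scaled to the library's total after TMM normalization, and a gene was called at an adjusted p under 0.05 in edgeR over all genes tested. Of the 51 genes, 16 were called higher in persister than in parental cells (31.4%, against 16.1% of all genes) and 5 were called lower (9.80%, against 15.1% of all genes). Over both directions that made 21 of 51, against 31.2% of all genes. Called or not, the persister values lay above the parental value in 26 of the 51 (51.0%, against 32.7% of all genes) and below it in 10 (19.6%, against 30.9%), or 70.6% against 63.6% in either direction. Left to the 47 members that did not pass the filter through persister libraries alone, 15 were called higher and 5 lower. Among the 22 V-ATPase genes tested, 10 were higher and 2 lower. Among the 29 autophagy genes, 6 were higher and 3 lower. The median log2 fold change was 0.42 for the 51 genes and 0.09 over all genes. Fitted on the persister and parental libraries alone, 6 of the genes were called higher and 3 lower, while without persister culture 2 the counts were 22 and 6.

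**Figure D1:**
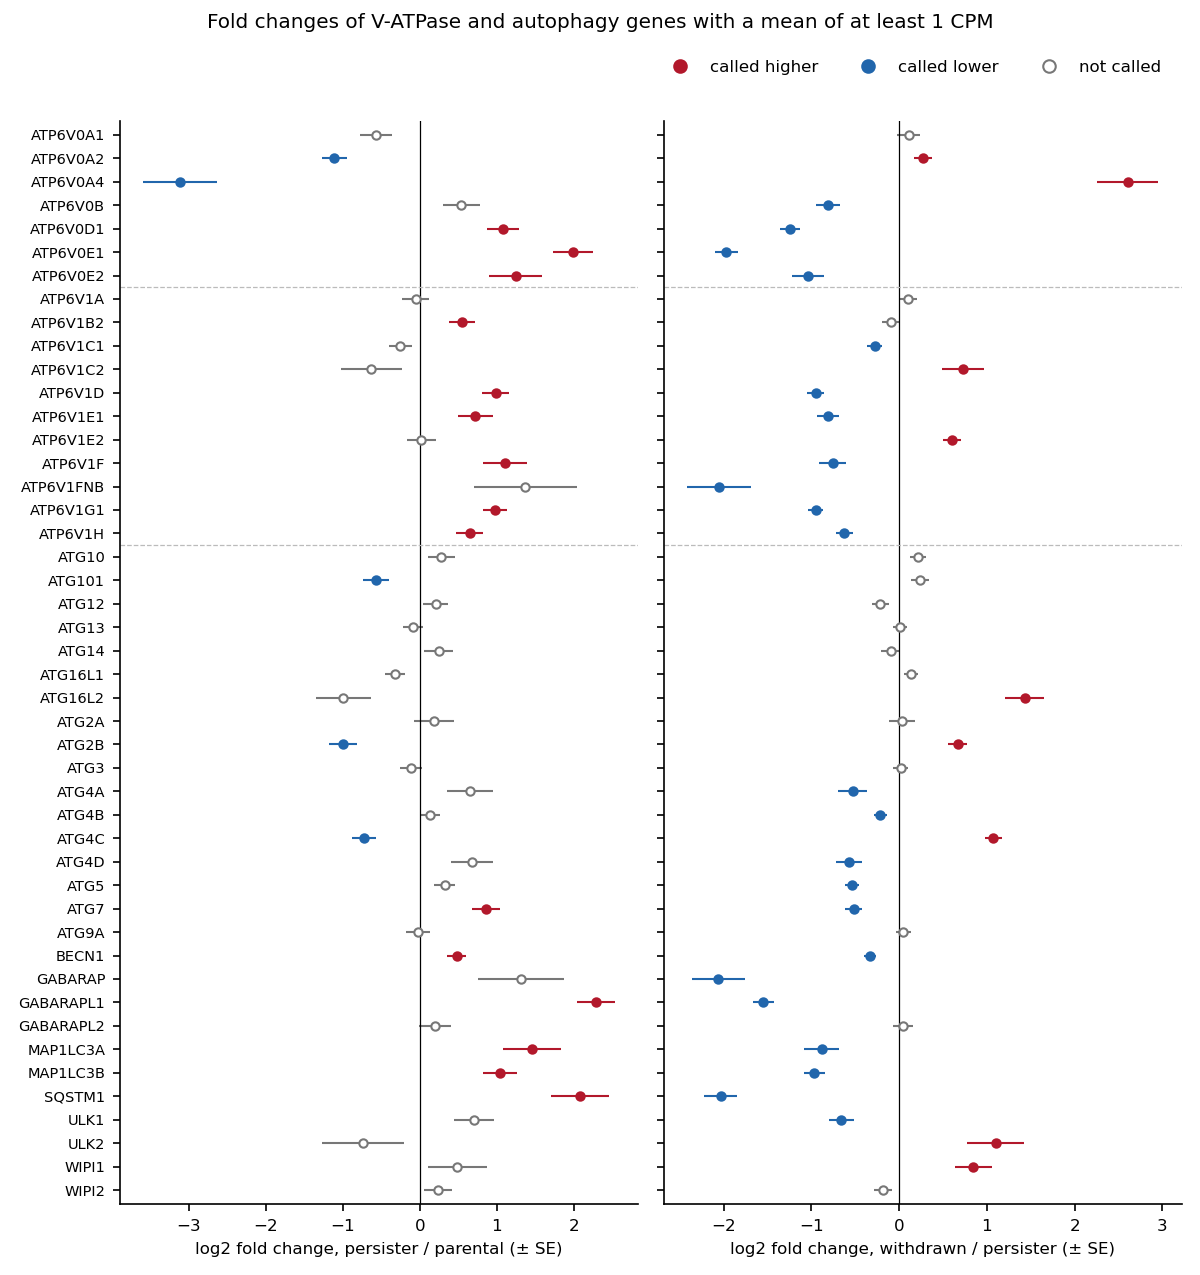
Log2 fold changes with standard errors of the 46 V-ATPase and autophagy genes with a mean of at least 1 CPM, for persister over parental cells (left) and withdrawn over persister cells (right). Red and blue points were called higher or lower by edgeR at an adjusted p under 0.05, and grey rings were not called. Dashed lines separate V0 genes, V1 genes with ATP6V1FNB, and autophagy genes. GABARAPL1, SQSTM1 and ATP6V0E1 lie farthest right on the left side and below -1.5 on the right side, and ATP6V0A4 lies at the opposite ends.

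Of the 9 V0 genes, ATP6V0E1, ATP6V0E2 and ATP6V0D1 rose in persister cells and ATP6V0A4 and ATP6V0A2 fell. That made 33.3% higher and 22.2% lower, against 16.1% and 15.1% of all genes. ATP6V0E1 (chr5:172983757-173035445) encodes subunit e, a small membrane protein of V0. Its levels were 58.9, 59.4, 57.8, 62.5 and 54.4 CPM in withdrawn cells 1 to 5, 250.2, 232, 206, 166 and 293 CPM in persister cells 1 to 5, and 57.8 CPM in parental cells. All persister values lay above all others, and the parental library lay within the withdrawn range. ATP6V0E1 was 3.97-fold higher in persister than in parental cells (log2 fold change 1.99 ± 0.26 SE, adjusted p = 0.00027). Subunit e has a second gene, ATP6V0E2 (chr7:149872968-149891204), with 19.6, 19.7, 20.2, 21.1 and 19.8 CPM in withdrawn, 62.8, 34.8, 31.4, 30.8 and 46.7 CPM in persister and 17.4 CPM in parental cells. It was 2.37-fold higher in persister than in parental cells (log2 fold change 1.24 ± 0.34 SE, adjusted p = 0.0174), with persister 1 highest and no overlap between groups. Per kilobase of exon, ATP6V0E1 made up 92.0% to 92.6% of the subunit e signal in withdrawn, 94.3% to 96.5% in persister and 93.2% in parental cells. ATP6V0D1 (chr16:67438014-67481237), subunit d, joins V0 to the central rotor and rose as well. It had 61.3, 54.0, 59.4, 63.4 and 55.2 CPM in withdrawn, 167, 121, 123, 122 and 160.1 CPM in persister and 65.6 CPM in parental cells (2.11-fold, log2 fold change 1.08 ± 0.21 SE, adjusted p = 0.0028). Persister 1 and 5 were the highest of the 5 persister libraries.

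Subunit a holds the proton path, and 2 of its genes fell. ATP6V0A4 (chr7:138706294-138799560), known for its role in kidney and inner ear, had 1.45, 2.14, 3.29, 1.45 and 1.60 CPM in withdrawn, 0.230, 0.184, 0.396, 0.535 and 0.259 CPM in persister and 2.81 CPM in parental cells. Every persister library lay below every other library, and the gene was 8.64-fold lower in persister than in parental cells (log2 fold change -3.11 ± 0.48 SE, adjusted p = 0.000705). ATP6V0A2 (chr12:123712318-123761755), the Golgi and endosome form, had 23.5, 24.3, 24.9, 24.0 and 23.3 CPM in withdrawn, 17.97, 23.0, 16.8, 23.3 and 18.5 CPM in persister and 42.9 CPM in parental cells. It was 2.16-fold lower in persister than in parental cells (log2 fold change -1.11 ± 0.17 SE, adjusted p = 0.000593). The lysosome and synaptic vesicle form ATP6V0A1 was not called, at 56.1 to 60.4 CPM in withdrawn, 43.6 to 69.4 CPM in persister and 79.8 CPM in parental cells (adjusted p = 0.0628 for persister against parental cells). Among the proteolipid genes of the membrane ring, ATP6V0B was not called in persister cells either, at 61.1 to 72.1 CPM in withdrawn, 89.8 to 152 CPM in persister and 81.4 CPM in parental cells (adjusted p = 0.106).

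Of the 12 V1 genes tested, 7 were higher in persister than in parental cells (58.3%, against 16.1% of all genes). Of the same 12, 0 were lower (against 15.1% of all genes). Among the 7 is ATP6V1G3, which passed the filter only through persister libraries, and without it 6 of 11 were higher. DESeq2 and limma-voom also called 10 V-ATPase genes higher and 2 lower. The rotor subunits D and F both rose. ATP6V1F (chr7:128862826-128865844) had 47.9, 47.7, 45.3, 45.3 and 44.4 CPM in withdrawn, 103, 75.3, 63.2, 55.4 and 92.9 CPM in persister and 36.3 CPM in parental cells, a 2.15-fold rise over parental cells (log2 fold change 1.10 ± 0.28 SE, adjusted p = 0.0126). ATP6V1D (chr14:67294371-67360265) had 55.8, 53.9, 55.6, 58.0 and 51.4 CPM in withdrawn, 112, 90.8, 123, 91.2 and 113 CPM in persister and 53.5 CPM in parental cells (1.98-fold, log2 fold change 0.99 ± 0.18 SE, adjusted p = 0.00193). For both genes the persister values lay above all others, while for ATP6V1F the withdrawn values also lay above the parental one.

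The peripheral stalk subunits E and G tether V1 to V0, and the widely expressed genes for both rose. ATP6V1G1 (chr9:114587746-114598373) had 60.8, 55.8, 54.8, 60.4 and 58.1 CPM in withdrawn, 109, 113, 101, 105 and 132 CPM in persister and 56.9 CPM in parental cells (1.97-fold, log2 fold change 0.98 ± 0.16 SE, adjusted p = 0.000919). ATP6V1E1 (chr22:17592136-17628818) had 91.2, 90.4, 88.4, 89.7 and 79.4 CPM in withdrawn, 188, 132, 138, 124 and 186 CPM in persister and 93.3 CPM in parental cells (1.65-fold, log2 fold change 0.72 ± 0.23 SE, adjusted p = 0.0325). Subunit H, which regulates the coupling of V1 and V0, rose 1.57-fold: ATP6V1H was at 58.9 to 65.3 CPM in withdrawn, 82.9 to 113 CPM in persister and 61.0 CPM in parental cells (adjusted p = 0.0154).

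The ring of subunits A and B, where ATP is hydrolysed, differed from these. ATP6V1A, the catalytic subunit, had 235, 241, 223, 245 and 225 CPM in withdrawn, 207, 192, 189, 232 and 270.2 CPM in persister and 226 CPM in parental cells, with overlapping groups and no call (log2 fold change -0.05 ± 0.18 SE for persister against parental cells, adjusted p = 0.848). ATP6V1B2 had 115, 101, 108, 131 and 106 CPM in withdrawn, 119, 114, 108, 117 and 139.9 CPM in persister and 82.1 CPM in parental cells. Its 1.46-fold rise over the parental library was called (log2 fold change 0.54 ± 0.17 SE, adjusted p = 0.031), but not without the low-count filter, and its withdrawn and persister values overlapped. Whether the change of ATP6V1A differs from that of the other subunits was not tested.

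The promoter windows of the members that rose in persister cells and fell after withdrawal are shown where they hold the core of the CLEAR motif, TCACGTG, to which TFEB and TFE3 are known to bind. RefSeq windows of 300 bases (250 before the transcription start and 50 from it, assembly GRCh38.p14) were at hand for 43 of the 53 genes. The core was searched on both strands, and capitals mark the match. The windows lie at chr7:149872718-149873017 on the plus strand for ATP6V0E2, chr16:67481108-67481407 on the minus strand for ATP6V0D1 and chr9:114587519-114587818 on the plus strand for ATP6V1G1.
ATP6V0E2: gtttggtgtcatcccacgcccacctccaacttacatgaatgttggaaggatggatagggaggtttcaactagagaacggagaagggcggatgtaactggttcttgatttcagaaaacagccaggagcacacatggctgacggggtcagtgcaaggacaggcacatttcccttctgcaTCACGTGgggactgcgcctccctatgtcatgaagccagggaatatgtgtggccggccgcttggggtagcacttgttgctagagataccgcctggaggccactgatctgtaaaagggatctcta
ATP6V0D1: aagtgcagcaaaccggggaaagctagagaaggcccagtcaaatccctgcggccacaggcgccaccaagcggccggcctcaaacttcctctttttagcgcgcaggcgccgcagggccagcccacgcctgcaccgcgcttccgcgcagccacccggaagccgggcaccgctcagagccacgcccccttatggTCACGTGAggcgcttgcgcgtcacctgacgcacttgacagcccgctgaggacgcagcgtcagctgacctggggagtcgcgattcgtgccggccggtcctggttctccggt
ATP6V1G1: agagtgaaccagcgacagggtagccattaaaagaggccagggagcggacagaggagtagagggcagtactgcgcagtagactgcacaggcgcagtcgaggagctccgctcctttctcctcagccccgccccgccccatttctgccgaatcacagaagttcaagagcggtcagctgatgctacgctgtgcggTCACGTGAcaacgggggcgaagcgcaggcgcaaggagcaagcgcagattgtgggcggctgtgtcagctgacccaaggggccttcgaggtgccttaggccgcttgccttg

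Counting the base just before the start as -1, the match begins at -73 in ATP6V0E2, at -60 in ATP6V0D1 and at -59 in ATP6V1G1. In ATP6V0D1 and ATP6V1G1 the motif reads on both strands in overlapping positions, which is why 8 letters are in capitals there. Over the set, 6 of 43 windows held the core (14.0%), against 720 of 14896 protein-coding windows (4.83%). Besides the printed windows, ATP6V0B, ATG3 and ATG14 held it, none of which was called between persister and parental cells. Of the 15 genes that rose and then fell, 12 had a window, with ATP6V1G3 among them, and the core was present in 3 of these 12. It was present in 3 of 24 windows of genes not called in persister cells and in 0 of 4 windows of genes that fell and then rose. Genes without a window could not be searched. The shorter E-box CACGTG, which every CLEAR core contains, was found in the same 6 windows and in 8.94% of all windows. The M-box TCATGTG, to which MITF is known to bind, was found in 1 window, that of ATG101, against 2.28% of all windows. The AP-1 motif TGANTCA was found in 2 windows, those of ATP6V1G3 and ATG9B (5.78% of all windows). CCAAT was found in 16 windows, 37.2% of the set and 36.4% of all windows. A match is a description of the letters and not a site of binding.

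GABARAPL1, MAP1LC3A and MAP1LC3B, whose ubiquitin-like products are joined to the autophagosome membrane, rose in persister cells. GABARAPL1 (chr12:10212458-10223130) had the highest log2 fold change over parental cells among the members with a mean of at least 1 CPM. Its levels were 49.9, 45.2, 45.6, 43.4 and 47.4 CPM in withdrawn, 154, 105, 127, 124 and 167 CPM in persister and 27.8 CPM in parental cells. The 3 groups did not overlap, with withdrawn cells between the other 2 groups. MAP1LC3B (chr16:87383995-87404779) had 125, 119, 119, 129.6 and 123 CPM in withdrawn, 247, 190.5, 225, 226 and 313 CPM in persister and 116 CPM in parental cells (2.06-fold over parental cells, log2 fold change 1.04 ± 0.22 SE, adjusted p = 0.00434). MAP1LC3A (chr20:34546854-34560345) had 9.63, 8.67, 9.86, 10.1 and 11.0 CPM in withdrawn, 19.4, 11.1, 19.5, 14.5 and 26.4 CPM in persister and 6.62 CPM in parental cells (2.74-fold, log2 fold change 1.46 ± 0.38 SE, adjusted p = 0.0135). Persister 2 was the lowest persister library for all 3 genes, and persister 5 the highest. GABARAPL2 was not called, at 112 to 117 CPM in withdrawn, 93.1 to 149 CPM in persister and 96.9 CPM in parental cells (adjusted p = 0.491 for persister against parental cells).

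SQSTM1 (chr5:179806398-179838078) encodes p62, a receptor that carries ubiquitinated cargo to the forming autophagosome and is itself degraded by autophagy. Its levels were 161, 178, 177, 159 and 159 CPM in withdrawn, 988, 566, 635, 427 and 801 CPM in persister and 162 CPM in parental cells. The lowest persister library, culture 4, still lay above all withdrawn and parental values, and the gene was 4.23-fold higher in persister than in parental cells (log2 fold change 2.08 ± 0.38 SE, adjusted p = 0.00192). The parental value fell within the withdrawn range.

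**Figure D2:**
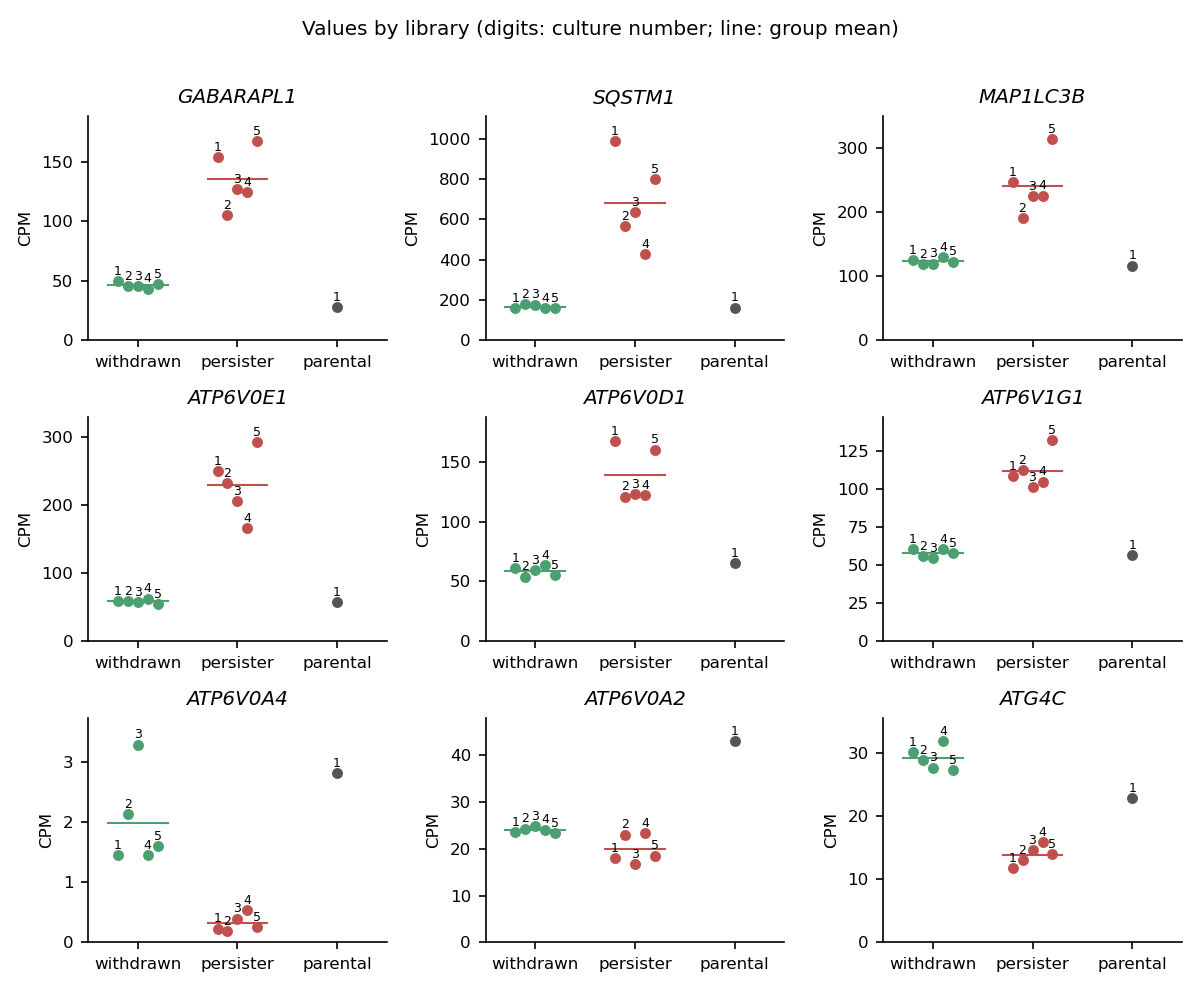
CPM of 9 genes in each library, with withdrawn, persister and parental cells from left to right. Each point is a library, its digit is the culture number and the line is the group mean. Persister values stand above the other libraries in the upper and middle rows, and in the lower row ATP6V0A4 and ATG4C are lowest in persister cells while ATP6V0A2 is highest in the parental library.

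The conjugation genes attach the ubiquitin-like proteins of autophagy to lipid. Of the 11 members, 1 rose and 1 fell in persister cells (9.09% each, against 16.1% and 15.1% of all genes). ATG7, the activating enzyme of both conjugation reactions, rose 1.81-fold: it had 29.9, 25.8, 29.5, 27.4 and 26.4 CPM in withdrawn, 43.9, 45.9, 39.5, 35.7 and 34.0 CPM in persister and 22.01 CPM in parental cells (log2 fold change 0.85 ± 0.18 SE, adjusted p = 0.00478). ATG4C, one of the proteases that process these proteins, fell: it had 30.1, 28.9, 27.7, 31.8 and 27.3 CPM in withdrawn, 11.8, 13.1, 14.6, 15.8 and 13.9 CPM in persister and 22.8 CPM in parental cells (1.65-fold lower, log2 fold change -0.72 ± 0.16 SE, adjusted p = 0.00508). The groups of both genes did not overlap. ATG5, whose product is joined to ATG12, had 23.5, 24.7, 25.3, 23.6 and 22.6 CPM in withdrawn, 32.9, 38.8, 34.3, 36.0 and 31.9 CPM in persister and 27.8 CPM in parental cells. It was not called between persister and parental cells (log2 fold change 0.32 ± 0.14 SE, adjusted p = 0.0968). ATG16L2, a paralog of ATG16L1, was at 4.83 to 6.09 CPM in withdrawn, 1.18 to 3.06 CPM in persister and 3.93 CPM in parental cells (adjusted p = 0.0508 for persister against parental cells). DESeq2, limma-voom and some other alternatives called it lower in persister than in parental cells, and the fit of persister and parental libraries alone did not.

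The earlier steps of autophagosome formation held 2 members that fell and 1 that rose in persister cells. Of 4 ULK complex genes 0 rose and 1 fell, and of 8 genes of nucleation and lipid transfer 1 rose and 1 fell. Over all genes 16.1% were higher and 15.1% lower. BECN1, a subunit of the lipid kinase complex that starts nucleation, rose 1.40-fold: it had 69.9, 67.7, 72.9, 71.2 and 69.6 CPM in withdrawn, 98.1, 84.4, 83.1, 87.1 and 90.8 CPM in persister and 63.6 CPM in parental cells (log2 fold change 0.48 ± 0.12 SE, adjusted p = 0.0124). ATG2B, a lipid transfer protein, had 51.5, 47.1, 52.2, 56.03 and 52.6 CPM in withdrawn, 30.4, 31.7, 25.6, 38.3 and 37.7 CPM in persister and 65.3 CPM in parental cells (2.00-fold lower in persister than in parental cells, log2 fold change -0.997 ± 0.18 SE, adjusted p = 0.00179). ATG101, a partner of the ULK kinases, had 19.3, 18.4, 18.7, 18.3 and 17.5 CPM in withdrawn, 15.9, 18.2, 16.3, 15.6 and 12.5 CPM in persister and 23.3 CPM in parental cells (1.49-fold lower, adjusted p = 0.024, not called without the low-count filter). In none of these genes did persister values overlap the parental one. The kinase gene ULK1 was not called between persister and parental cells. Its levels were 31.0, 28.3, 30.2, 30.0 and 31.9 CPM in withdrawn, 50.3, 32.5, 48.2, 45.3 and 63.1 CPM in persister and 29.4 CPM in parental cells (log2 fold change 0.70 ± 0.26 SE, adjusted p = 0.0573). It was called by DESeq2, and by edgeR without persister culture 2 or 5, the lowest and the highest of the 5. In the fit of persister and parental libraries alone, the calls of MAP1LC3A, MAP1LC3B, ATG7, ATG4C, BECN1, ATG101, ATP6V0E2, ATP6V1F, ATP6V1E1, ATP6V1H, ATP6V1B2 and ATP6V1G3 were lost.

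The members' shares of a family's signal were compared for the ATG4, WIPI and subunit a genes. Shares were taken of the summed CPM per kilobase of exon over the genes of the set alone, and are described without a test. Among the ATG4 proteases, ATG4C held 33.8% to 37.3% in withdrawn, 11.5% to 18.7% in persister and 30.5% in parental cells. ATG4D held 27.5% to 31.1% in withdrawn, 33.6% to 45.6% in persister and 30.1% in parental cells. Of the sum of WIPI1 and WIPI2, the only WIPI genes in the set, WIPI1 held 59.6% to 65.5% in withdrawn, 39.1% to 55.2% in persister and 41.5% in parental cells. Among the 3 subunit a genes of the set (TCIRG1, which also encodes a subunit a, falls outside the choice by symbol), ATP6V0A1 was first in every library, with 66.4% to 72.8% in withdrawn, 70.5% to 82.3% in persister and 65.7% in parental cells. ATP6V0A4 held 4.63% to 10.3% in withdrawn, 0.726% to 2.09% in persister and 6.15% in parental cells. Other families were nearly all 1 gene in every library: ATP6V1B2 held at least 99.7% of subunit B, ATG9A at least 99.6% of ATG9 and ATP6V1G1 at least 98.4% of subunit G.

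**Figure D3:**
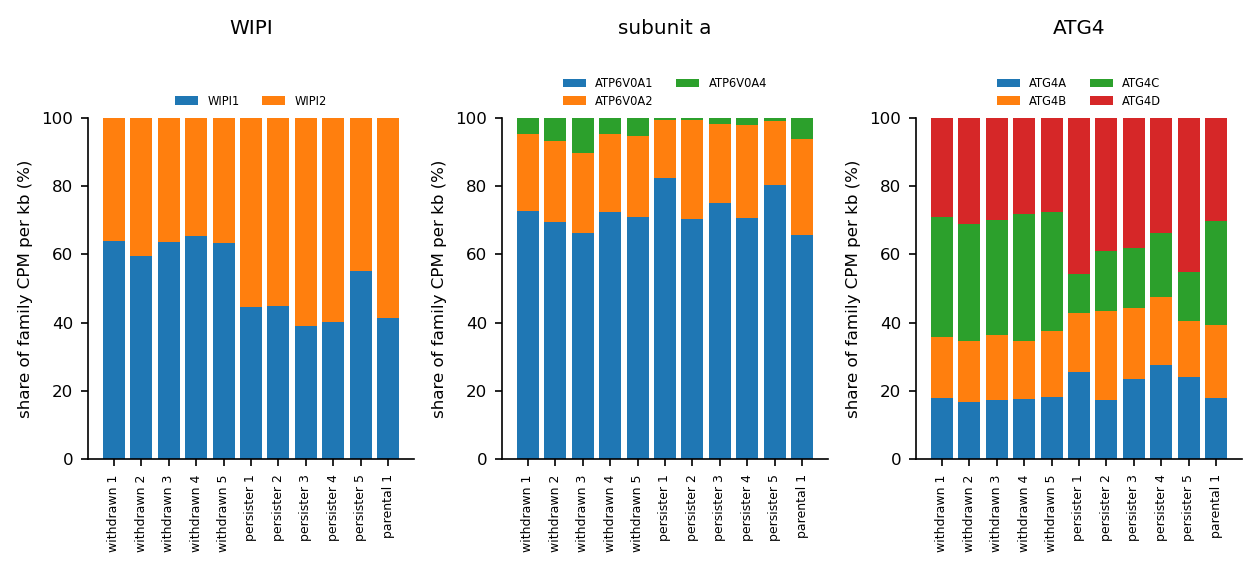
Share of each gene in the summed CPM per kilobase of exon of the family's genes in the set. The panels show WIPI1 and WIPI2 (left), subunit a (middle) and ATG4 (right). Each bar is 1 library, with withdrawn cells first, then persister and parental cells. WIPI1 takes 59.6% to 65.5% of the sum of WIPI1 and WIPI2 in withdrawn libraries and at most 55.2% elsewhere, and ATG4C takes at most 18.7% in persister libraries and at least 30.5% elsewhere.

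After 4 weeks without drug, 25 of the 51 genes were lower in withdrawn than in persister cells (49.0%, against 28% of all genes) and 9 were higher (17.6%, against 24.5% of all genes). Of the 22 V-ATPase genes, 13 fell and 4 rose. Of the 29 autophagy genes, 12 fell and 5 rose. The median log2 fold change was -0.28 for the 51 genes and -0.03 over all genes. Over both directions 34 genes were called, against 52.5% of all genes. Called or not, all withdrawn values lay above all persister values in 9 of the 51 (17.6%, against 20.3% of all genes) and below them in 22 (43.1%, against 20.3%). Among the genes called, the groups overlapped in ATP6V0A2, ATG4A, ATP6V0D2 and ATP6V1C1. Without the 4 members that passed the filter only through persister libraries, 23 fell and 9 rose of 47. The comparison shares the persister libraries with the one above, so the calls of both are not independent.

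The genes with the deepest falls were largely those described above. ATP6V0E1 was 3.91-fold lower in withdrawn than in persister cells (log2 fold change -1.97 ± 0.13 SE, adjusted p = 5.24e-07). SQSTM1 was 4.10-fold lower (log2 fold change -2.03 ± 0.19 SE, adjusted p = 6.2e-06), and GABARAPL1 2.93-fold lower (log2 fold change -1.55 ± 0.12 SE, adjusted p = 1.41e-06). Then came ATP6V0D1 at 2.36-fold, ATP6V0E2 at 2.06-fold and MAP1LC3B at 1.95-fold lower (adjusted p = 4.49e-06, 0.000531 and 3.84e-05). Another pair of genes that fell by over 4-fold had low levels: ATP6V1FNB was at 0.784 to 1.48 CPM in withdrawn and 1.84 to 8.36 CPM in persister cells (4.15-fold lower, adjusted p = 0.000593), and GABARAP at 1.58 to 2.12 CPM in withdrawn and 3.26 to 12.8 CPM in persister cells (4.17-fold lower, adjusted p = 0.000155). The share of all genes that fell after withdrawal without a call between persister and parental cells was not taken. Among the members there were 10: ATP6V0B, ATP6V0D2, ATP6V1C1, ATP6V1FNB, ATG4A, ATG4B, ATG4D, ATG5, GABARAP and ULK1. Of these, ATG5 was 1.45-fold lower (log2 fold change -0.54 ± 0.08 SE, adjusted p = 0.000145) and ULK1 1.58-fold lower (log2 fold change -0.66 ± 0.14 SE, adjusted p = 0.00217). The proteases ATG4A, ATG4B and ATG4D were 1.44-fold, 1.16-fold and 1.49-fold lower (adjusted p = 0.0163, 0.0293 and 0.00676), and ATP6V1C1, the widely expressed subunit C, was 1.21-fold lower (adjusted p = 0.0189). ATG4C thus rose after withdrawal while the other 3 ATG4 genes fell. The call of ATG4B was lost in 5 of 19 fits, the main fit counted among the 19, and that of ATG4A without persister cultures 1 and 5.

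The 9 genes higher in withdrawn than in persister cells were ATP6V0A4, ATG16L2, ULK2, ATG4C, WIPI1, ATP6V1C2, ATG2B, ATP6V1E2 and ATP6V0A2. ATP6V0A4 was 6.09-fold higher (log2 fold change 2.61 ± 0.35 SE, adjusted p = 7.53e-05), ATG4C 2.10-fold higher (adjusted p = 3.9e-06) and ATG2B 1.59-fold higher (adjusted p = 0.000395). ATG16L2 was 2.70-fold higher, with all 5 withdrawn values above all 5 persister values (log2 fold change 1.43 ± 0.22 SE, adjusted p = 0.000226). ULK2, a paralog of the kinase ULK1, had 4.94, 6.27, 5.83, 5.80 and 6.40 CPM in withdrawn, 3.69, 1.01, 1.72, 4.44 and 2.74 CPM in persister and 4.54 CPM in parental cells (2.14-fold higher, adjusted p = 0.0138). ULK1 and ULK2 were thus called in opposite directions in this comparison. ATP6V1C2, the epithelial form of subunit C, had 1.19, 1.28, 1.41, 1.05 and 1.38 CPM in withdrawn and 1.03, 0.406, 0.852, 0.730 and 0.778 CPM in persister cells (1.66-fold higher, adjusted p = 0.0231), a call lost without withdrawn library 3 or 5. The call of ATP6V0A2 (1.20-fold higher, adjusted p = 0.046) was lost in 13 of 19 fits, the main fit counted among the 19. The fit with the culture number as a block was one that lost it (adjusted p = 0.0634).

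WIPI1 and ATP6V1E2 stood higher in every withdrawn library than in any persister or parental library. The same held for ATG4C, ATG16L2, ULK2 and ATG10. WIPI1, which binds the phosphoinositide made by the BECN1 complex, had 66.0, 57.1, 66.3, 74.6 and 64.4 CPM in withdrawn, 43.8, 31.6, 23.6, 26.7 and 56.9 CPM in persister and 26.1 CPM in parental cells. It was 1.80-fold higher in withdrawn than in persister cells (log2 fold change 0.85 ± 0.21 SE, adjusted p = 0.00617), and the parental value lay within the persister range. Against the parental library WIPI1 was 2.52-fold higher in withdrawn cells (log2 fold change 1.33 ± 0.41 SE), which edgeR did not call (adjusted p = 0.161) and DESeq2 did (adjusted p = 0.0256). MITF itself had 153, 109.9, 126, 172 and 132 CPM in withdrawn, 113, 89.7, 96.0, 119 and 93.5 CPM in persister and 78.4 CPM in parental cells. It was called higher in withdrawn than in persister cells (1.35-fold, adjusted p = 0.0134), with overlapping groups. A link between the levels of MITF and WIPI1 was not tested. ATP6V1E2, the second gene of subunit E, had 14.7, 12.8, 14.3, 14.6 and 13.9 CPM in withdrawn, 10.3, 9.70, 9.71, 8.96 and 7.57 CPM in persister and 9.10 CPM in parental cells (1.52-fold higher in withdrawn than in persister cells, adjusted p = 0.000536). Its paralog ATP6V1E1 was called in the opposite direction, 1.75-fold lower (adjusted p = 0.000232).

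Between withdrawn and parental cells, edgeR called 0 of the 51 genes, against 0.312% of all genes higher, 0.118% lower and 0.431% in either direction. At an unadjusted p under 0.05 there were 7 of 51 genes (13.7%, against 15.2% of all genes), limma-voom called 0 and DESeq2 called 5: WIPI1, GABARAPL1 and ATP6V1E2 higher, ATP6V1C1 and ATP6V0A2 lower. Of the 46 members with a mean of at least 1 CPM, 40 lay within 1.5-fold of the parental library. The others were WIPI1, GABARAPL1 (1.67-fold higher in withdrawn cells) and ATP6V1E2 (1.54-fold higher), and ATP6V0A2 (1.79-fold lower), GABARAP (1.68-fold lower) and ATP6V1FNB (1.61-fold lower). With 1 parental library, a missing call does not show that the levels were alike. The count of 0 also depends on the fit. Fitted on withdrawn and parental libraries alone, more members were called, as given in the last section.

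Taking the comparisons as a set of calls, 19 of the 51 genes were reverted (37.3%, against 26.9% of all genes): they passed the test in persister cells, passed it with the opposite sign after withdrawal, and missed it when withdrawn cells were set against the parental library. In the fit of all libraries, no member kept its persister call against the parental library after withdrawal without a reversing call (0.0802% of all genes), reversed only in part (0.131%) or passed the parental level to a call on its other side (0.038%). The 19 reverted genes were 15 that were higher in persister cells (29.4%, against 13.7% of all genes) and 4 that were lower (7.84%, against 13.2% of all genes). Without the members that passed the filter only through persister libraries, 18 of 47 were reverted, and 14 of these were higher in persister cells. The class rests on missing calls against the single parental library: fitted on withdrawn and parental libraries alone, 7 of the 19 were called between these groups (ATG2B, ATG4C, ATG7, ATP6V0A2, ATP6V1F, GABARAPL1 and MAP1LC3A), and by DESeq2 2 were (ATP6V0A2 and GABARAPL1). The reversing call of ATP6V0A2 was itself lost in 13 of 19 fits. The 11 V-ATPase genes among the 19 were ATP6V0A2, ATP6V0A4, ATP6V0D1, ATP6V0E1, ATP6V0E2, ATP6V1D, ATP6V1E1, ATP6V1F, ATP6V1G1, ATP6V1G3 and ATP6V1H, and the 8 autophagy genes were ATG2B, ATG4C, ATG7, BECN1, GABARAPL1, MAP1LC3A, MAP1LC3B and SQSTM1. ATP6V1B2 was called higher and ATG101 lower in persister cells without a call after withdrawal. The share of all genes called in no comparison was not taken, so the count of such members is not read as particular to the set. The 15 members called in none were ATG2A, ATG3, ATG9A, ATG9B, ATG10, ATG12, ATG13, ATG14, ATG16L1, WIPI2, GABARAPL2, ATP6V0A1, ATP6V0C, ATP6V1A and ATP6V1G2. Among them ATG13, a scaffold of the ULK complex, had 113 to 123 CPM in withdrawn, 105 to 131 CPM in persister and 125 CPM in parental cells. ATG3, an enzyme of the lipid conjugation step, had 61.1 to 65.7 CPM in withdrawn, 54.1 to 73.2 CPM in persister and 68.2 CPM in parental cells. WIPI2, which brings the ATG16L1 complex to the forming membrane, had 97.97 to 104 CPM in withdrawn, 97.05 to 143 CPM in persister and 96.7 CPM in parental cells. In each of these genes the withdrawn range lay within the persister range or overlapped it. ATG9A, a membrane protein that moves lipids between leaflets, had 32.1 to 38.6 CPM in withdrawn, 30.9 to 37.8 CPM in persister and 34.6 CPM in parental cells. ATG2A, the paralog of ATG2B, had 37.8 to 45.9 CPM in withdrawn, 31.2 to 56.8 CPM in persister and 35.1 CPM in parental cells. ATG14, the BECN1 partner that acts in autophagy, had 17.1 to 18.1 CPM in withdrawn, 16.1 to 22.7 CPM in persister and 15.9 CPM in parental cells. The conjugation genes ATG10, ATG12 and ATG16L1 also went without a call. ATG12 had 44.9 to 49.4 CPM in withdrawn, 44.1 to 62.5 CPM in persister and 46.5 CPM in parental cells, and ATG16L1 had 31.3 to 35.4 CPM in withdrawn, 26.8 to 32.4 CPM in persister and 38.1 CPM in parental cells. ATP6V1G2, the brain form of subunit G, had 0.756 to 0.876 CPM in withdrawn, 0.387 to 0.792 CPM in persister and 0.597 CPM in parental cells. ATG10 had 13.1 to 14.5 CPM in withdrawn, 9.92 to 12.9 CPM in persister and 9.73 CPM in parental cells.

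Several members had too few counts for their levels to be compared beyond the bounds given here. ATP6V1G3, ATP6V0D2 and ATG9B passed the filter only through persister libraries, so their values below are descriptions and no further support for a rise. ATP6V1G3, a kidney form of subunit G, had 0 counts in all 5 withdrawn libraries, 18, 8, 48, 35 and 12 counts in persister cultures 1 to 5 and 0 counts in the parental library. With a floor of 3 counts for a group at 0, it was at least 39.7-fold lower in withdrawn than in persister cells, and at least 7.74-fold higher in persister than in parental cells. Its call against the parental library (adjusted p = 0.0316) was lost without persister culture 4 and in the fit of persister and parental libraries alone. ATP6V0D2, a form of subunit d known from osteoclasts and macrophages, had 0, 0, 2, 0 and 1 counts in withdrawn, 2, 7, 14, 1 and 33 counts in persister and 0 counts in parental cells. Relative to depth the persister group stood 18.7-fold above the withdrawn group (95% counting interval 6.08 to 93.3), and 33 of its 57 persister counts came from culture 5. ATG9B, a paralog of the membrane protein ATG9A, had 10 counts over the withdrawn, 18 over the persister and 0 in the parental libraries, and ATP6V1B1 had 26 over the withdrawn, 25 over the persister and 3 in the parental libraries. Intervals and floors cover counting error only.

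**Figure D4:**
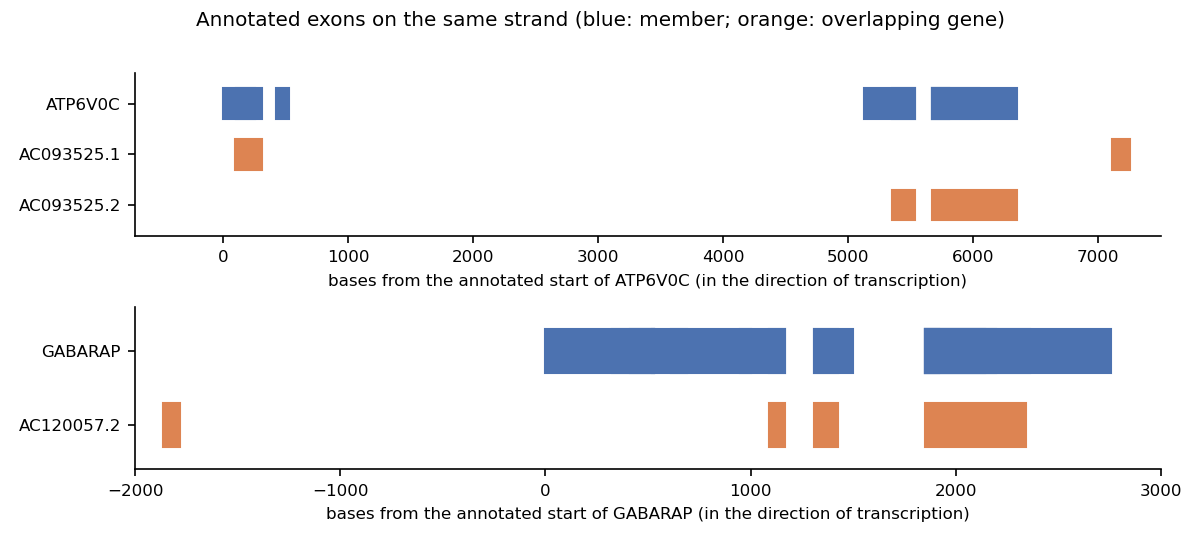
Annotated exons of ATP6V0C (top) and GABARAP (bottom) in blue, and of same-strand protein-coding genes that overlap them in orange, in bases from the annotated start in the direction of transcription. The overlapping genes take up 72.1% of the exon bases of ATP6V0C and 30.5% of those of GABARAP.

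The level of ATP6V0C, which encodes the main proteolipid of the V0 ring, cannot be read from these counts. It was listed at 7, 3, 6, 5 and 7 counts in withdrawn, 8, 3, 9, 11 and 12 counts in persister and 6 counts in parental cells. In the annotation 57.5% of its 1498 exon bases are shared on the same strand with AC093525.2 and 14.6% with AC093525.1, and both of those genes had 0 counts in all libraries. In GABARAP 30.5% of the exon bases are shared with AC120057.2, which also had 0 counts, and in ATG9A 38.8% with AC068946.2. HTSeq by default leaves out a read that falls on 2 genes, but the setting used here is not given in the sources used here, and the part of these overlaps in the low counts was not tested. Across the set, 34 of the 53 genes overlap exons of other genes. In 30 of them the other gene lies on the opposite strand, as in SQSTM1 with MRNIP (20.7% of its exon bases), WIPI1 with ARSG (24.3%) and ATP6V1F with KCP (23.7%). Since the strand setting of the counting is not stated, reads of such genes may be mixed. Counts of SQSTM1, MAP1LC3B, BECN1, ATG3, ATG4A, ATG12, ATP6V0C, ATP6V0E1, ATP6V1E1 and ATP6V1G1, which have processed pseudogene copies, are uncertain, since reads may fall on either copy. Copies were looked for by the member's symbol alone, so copies under other names are not covered, and the list may be incomplete.

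Persister cultures 1 and 5 stood above the other persister cultures in many members. They were the highest pair in 24 of 51 members (47.1%), against 18.5% of all genes, and in 11 of the 16 members called higher in persister cells (68.8%), against 32.3% of all genes called higher. The summed level of the 24 V-ATPase genes was 987 to 1094 CPM in withdrawn cells, 1759.9 and 1914 CPM in persister cultures 1 and 5, 1415 to 1457 CPM in persister cultures 2 to 4, and 1084 CPM in parental cells. The 29 autophagy genes summed to 1293 to 1349 CPM in withdrawn, 2492 and 2392 CPM in persister cultures 1 and 5, 1758 to 1928 CPM in persister cultures 2 to 4 and 1235 CPM in parental cells. The same 2 cultures were lowest in 12 cell cycle genes, at 882 and 389 CPM, against 2386 to 3241 CPM in persister cultures 2 to 4, 2677 to 2902 CPM in withdrawn and 3124 CPM in parental cells. The part of cell cycling in these levels was not tested. Without cultures 1 and 5, an alternative chosen after seeing the data, the persister against parental comparison called 19 members higher and 8 lower, and the withdrawn against persister comparison 13 higher and 25 lower. The spread within groups differed too: the median coefficient of variation of the 46 members was 4.63% over withdrawn and 16.5% over persister libraries, against 6.47% and 19.7% over all genes of that level.

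**Figure D5:**
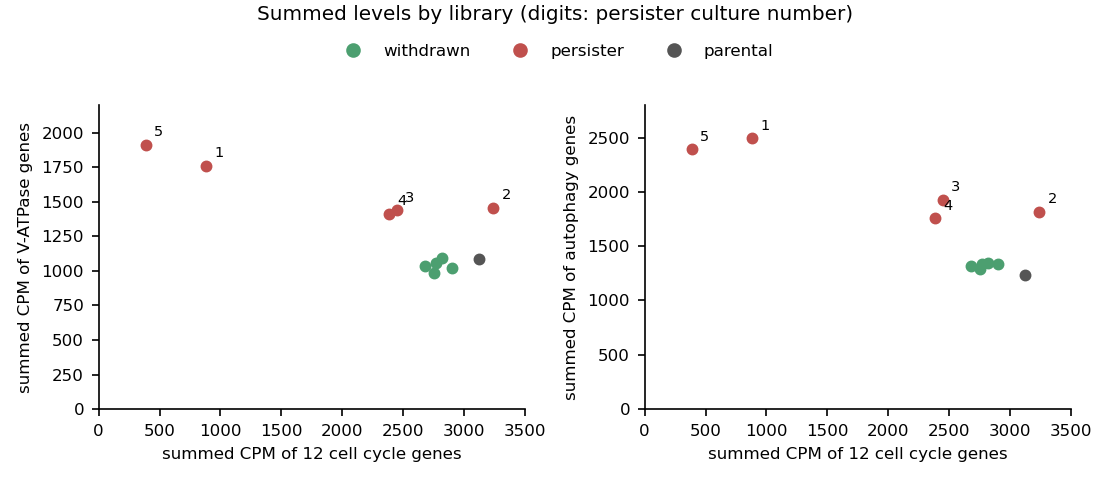
Summed CPM of the 24 V-ATPase genes (left) and 29 autophagy genes (right) against the summed CPM of 12 cell cycle genes, 1 point per library, in withdrawn, persister and parental cells, with the culture number beside each persister point. Persister 1 and 5 lie at the upper left, persister 2 to 4 lie to the right of them at 1415 to 1457 CPM and 1758 to 1928 CPM, and withdrawn and parental libraries lie below all persister libraries.

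Genes that act beside the set were counted from lists, with the shares of all genes given above as the background. Of 30 TFE factors and mTORC1 regulators, 13 rose and 1 fell in persister cells relative to parental cells, and 2 rose and 16 fell after withdrawal. SESN2, a sensor that restrains mTORC1, was at 12.03 to 14.0 CPM in withdrawn, 26.3 to 34.0 CPM in persister and 10.6 CPM in parental cells (2.72-fold higher in persister than in parental cells, adjusted p = 0.000206). LAMTOR1, the anchor of the Ragulator complex, was at 54.7 to 61.6 CPM in withdrawn, 98.2 to 126 CPM in persister and 60.3 CPM in parental cells (1.81-fold higher in persister than in parental cells, adjusted p = 0.00179). TFEC, a relative of TFEB, was at 0.0570 to 0.208 CPM in withdrawn, 1.46 to 8.32 CPM in persister and 0.0765 CPM in parental cells (adjusted p = 0.00439). TFEB was not called (1.65 to 2.24 CPM in withdrawn, 1.09 to 4.00 CPM in persister and 1.55 CPM in parental cells, adjusted p = 0.551 for persister against parental cells), nor was MITF in that comparison (adjusted p = 0.219), whereas TFE3 was 2.20-fold higher in persister than in parental cells (adjusted p = 0.00721).

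Of 13 assembly and accessory genes of the V-ATPase, 5 rose and 3 fell in persister cells relative to parental cells, and 5 rose and 6 fell after withdrawal. DMXL2, a subunit of the complex that joins V1 to V0, was at 50.3 to 55.2 CPM in withdrawn, 23.1 to 32.9 CPM in persister and 54.4 CPM in parental cells (1.94-fold lower in persister than in parental cells, adjusted p = 0.000947). TMEM9 of the same list was at 57.7 to 62.0 CPM in withdrawn, 59.2 to 86.9 CPM in persister and 40.2 CPM in parental cells (1.75-fold higher in persister than in parental cells, adjusted p = 0.00667). CCDC115, an assembly factor of V0, was at 9.49 to 10.1 CPM in withdrawn, 18.1 to 27.8 CPM in persister and 11.0 CPM in parental cells (1.97-fold higher in persister than in parental cells, adjusted p = 0.00936). Of 18 other genes of autophagy initiation, 2 were higher and 7 lower in persister cells, and 8 higher and 5 lower after withdrawal. BCL2L1, an inhibitor of BECN1, was 2.99-fold higher in persister than in parental cells (adjusted p = 0.00155), whereas BCL2, which also binds BECN1, was 2.86-fold lower (adjusted p = 0.000416) and UVRAG, a partner of BECN1, 1.77-fold lower (adjusted p = 0.00192).

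Of 20 selective autophagy receptors and cofactors other than SQSTM1, 5 were higher and 1 lower in persister cells, and 7 higher and 6 lower after withdrawal. OPTN, a receptor for damaged mitochondria, was at 37.4 to 42.3 CPM in withdrawn, 57.4 to 94.9 CPM in persister and 22.2 CPM in parental cells (3.31-fold higher in persister than in parental cells, adjusted p = 0.000469), and TEX264, a receptor for the endoplasmic reticulum, was 2.21-fold higher (adjusted p = 0.00325). WDFY3, which helps to clear aggregates, was 2.04-fold lower (adjusted p = 0.00201). Of 18 genes of fusion with the lysosome, 6 were higher and 1 lower in persister cells, and 3 higher and 11 lower after withdrawal. PLEKHM1, an adaptor that joins autophagosomes to the tethering complex on lysosomes, was at 18.9 to 21.9 CPM in withdrawn, 41.9 to 65.0 CPM in persister and 21.8 CPM in parental cells (2.42-fold higher in persister than in parental cells, adjusted p = 0.00195). RUBCNL, which takes part in autophagosome maturation, was 2.77-fold lower in persister than in parental cells (adjusted p = 0.00232), and the fusion protein SNAP29 1.49-fold higher (adjusted p = 0.00354).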

How the data were processed

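The authors deposited 1 table of read counts, with a row for each gene and a column for each library. The submitters' processing notes name bcl2fastq, HISAT2, HTSeq and the hg38 build. Per the labels' protocols, column-purified RNA was made into stranded poly(A) libraries. The tool versions, the strand setting and the annotation release were not given in the sources used here. These counts, as deposited, were whole numbers without normalization. All 58721 gene IDs matched GENCODE release 29, which gave symbols and GRCh38 coordinates.

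Differences between groups came from edgeR 4.0.16 under R 4.3.3 (the filterByExpr filter with a minimum count of 10 and a minimum total of 15, TMM, robust quasi-likelihood fit of all 11 libraries with 8 residual degrees of freedom), with Benjamini-Hochberg adjustment over 23693 genes. Alternatives were DESeq2 1.42.0, limma-voom (limma 3.58.1), DESeq2 size factors in edgeR, other filters, fewer libraries and a replicate block. The edgeR script was tested on simulated data. A library's depth sets its precision: 3 counts were the floor for groups at 0. The named genes are, per comparison, up to 8 called higher and 8 called lower with the largest fold change at a mean of at least 1 CPM, 11 genes of known role, and up to 3 members of each list by adjusted p. TFEB, TFE3, MITF and the other members given with values were added after their values were seen. Members, lists and this rule were chosen with earlier results of these data known. Withdrawn libraries carry the number of their persister culture in the labels, which pairs them; deviations of same-numbered libraries had correlations of 0.0484 to 0.0909, highest with the own number in 5 of 5.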

Additional observations from a re-analysis of the deposited data

Results flagged for a closer look

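In 3 of 102 groups of 5 libraries, a library stood apart from the other 4 by more than the 95% limit for gaps, which chance alone passes in about 1 in 20 groups. ATP6V1E1 had 79.4 CPM in withdrawn 5, against 88.4 to 91.2 CPM in the other withdrawn libraries. ATG9B had 0.152 CPM in persister 3, against 0.0137 to 0.0461 CPM in the other persister libraries, and 0.105 CPM in withdrawn 2, against 0 to 0.0296 CPM in the other withdrawn libraries; these values rest on 10 and 6 counts.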

How the results depend on the processing

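The 25 falls and 9 rises after withdrawal stayed within 1.5 times in all alternatives run: 24 to 26 and 7 to 11 when 1 library was left out, 23 and 8 with the culture number as a replicate block, which changed no call of a named gene other than that of ATP6V0A2. Between persister and parental cells the counts were 16 to 22 higher and 5 to 7 lower when 1 library was left out, 6 and 3 with only these 2 groups in the fit, and 8 lower without persister 1 and 5. Over all genes the 2-group fit called 1354 higher and 1215 lower, against 3819 and 3572. Between withdrawn and parental cells, where 0 were called, DESeq2 called 3 higher and 2 lower, the fit of the 2 groups 10 and 8, the fit without persister 1 and 5 called 3 and 3, the filter of at least 10 counts in 5 libraries 1 lower, and leaving out 1 library 0 to 1 higher and 0 to 2 lower. Over all genes, that comparison gave 74 higher and 28 lower, 775 and 409 with DESeq2, 3483 and 3110 with the 2 groups, and 1241 and 845 without persister 1 and 5. The 2-group fits have fewer libraries, and the fit of withdrawn and parental libraries holds no persister library. The members' median coefficient of variation was 16.5% over persister and 4.63% over withdrawn libraries. The part of either in these counts was not tested. Fold changes near 0 changed sign for ATP6V1E2 (persister against parental, log2 fold change -0.018 to 0.0881 when 1 library was left out) and ATP6V0E1 (withdrawn against parental, -0.0044 with DESeq2 size factors in edgeR and in DESeq2, -0.0034 to 0.0392 when 1 library was left out). The single parental library and the unknown origin of the cultures limit every comparison, and members at a few counts are limited by depth.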
